A study of Mus musculus with 58 samples.

Results

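The genes described here are named for the proteins of the cytosolic ribosome, and a paralogue counted by its name need not encode one. They were taken as every protein-coding row whose GENCODE M21 symbol is Rpl or Rps with a number (with an optional paralogue ending), together with Rpsa, Rplp0, Rplp1, Rplp2 and Fau, and without the Rps6k kinases. This rule used names only and no measured value. It found 84 of the 25307 genes in the table, 51 of the large subunit and 33 of the small subunit. Of these, 81 passed the filter on low values (3 or more libraries of a cell type at a normalized count of 10 or above) in all 3 cell types. The 3 members left out, the paralogues Rpl10l, Rpl39l and Rpl3l, were listed at 0 in 52, 48 and 31 of the 58 libraries. Rpl36al, which also encodes a ribosomal protein, and the ribosome scaffold gene Rack1 have names outside the pattern and are not counted.

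The series holds 58 RNA libraries of Kupffer cells, monocyte-derived macrophages and monocytes, all isolated from livers of 129SV mice. Sham6w were the controls at 6 weeks. CBDL2w and CBDL6w were mice 2 and 6 weeks after ligation of the common bile duct, which dams up bile and injures the liver (the onset and the advanced state). DSS were mice with acute colitis, named for dextran sulfate sodium, and CBDL+DSS had the advanced ligation injury with acute colitis added. Each of the 15 groups had 4 libraries, except 3 each for the Sham6w macrophages and the Sham6w monocytes. The labels of 9 libraries join 2 or 3 replicate numbers, 2 of them Sham6w macrophages and 2 of them Sham6w monocytes. No time is given for DSS or CBDL+DSS, and CBDL2w differs from its controls in time as well. Beyond the numbers, the labels do not say whether a replicate is an animal of its own, and p-values here speak of the spread among these libraries, which may be technical. Every comparison with Sham6w within a cell type shares the same controls.

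Recovered reads per library ran from 118687 to 521954, and between 8885 and 13360 genes were detected. Sham6w Kupffer cells and monocytes carried the markers of their labels, and shares for the macrophages are given with those cells. The 14 Kupffer cell markers held 1.09 to 1.19% of normalized counts in Sham6w Kupffer cells and 0.119 to 0.205% in Sham6w monocytes. The 9 classical monocyte markers held 0.568 to 0.718% in Sham6w monocytes and 0.0209 to 0.0321% in Sham6w Kupffer cells. The libraries hold short reads from the 3' ends of transcripts, so members are compared between groups and not with each other. In such bulk samples fewer cells that make a transcript and less transcript per cell cannot be told apart.

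A ribosome joins a large and a small subunit, each a scaffold of ribosomal RNA clad in proteins that are nearly all present in 1 copy. The genes for these proteins are among the most abundant messages of growing cells and are kept in step with each other. Most of their messages start with a cytosine and a run of pyrimidines, the TOP motif, through which the growth-sensing kinase mTOR controls their translation, and a macrophage or monocyte that enlarges or divides needs more ribosomes.

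The start of the transcript is therefore shown for members on which the results below turn. Windows of 250 bases before to 50 after an annotated start were taken from RefSeq (GRCm38.p6), which matched 64 of the 84 members with 76 windows. A tract was counted where C was followed by at least 4 more C or T on the transcribed strand, beginning within 5 bases of the annotated start. The match beginning nearest the start was kept, so a tract may be part of a longer run of C and T. In the Rpl34 and Rpl7a lines below, that run begins more than 5 bases before the start. A tract so counted stood in 32 of the 76 member windows (42.1%) and in 6027 of all 32851 windows (18.3%). A match is a description of these letters and a start may be annotated some bases away from the true one. The lines give 40 bases before and 20 after the start, 5′ to 3′, with the tract in capitals. Rps18 (chr17:33955646-33955705, minus strand) had the largest called rise of a member in DSS Kupffer cells. Rpl34 (chr3:130730318-130730377, minus strand, 1 of its 2 windows) had the largest in CBDL2w monocytes. Rps27 (chr3:90213629-90213688, minus strand), Rpl13a (chr7:45128726-45128785, minus strand) and Rpl7a (chr2:26910767-26910826, plus strand) are taken up below. Rpl7l1 (chr17:46782637-46782696, minus strand) and Rpsa (chr9:120127726-120127785, plus strand), shown last, are taken up below too and held no match, as did most of the matched members (30 of 64 had a tract in at least 1 window).
Rps18: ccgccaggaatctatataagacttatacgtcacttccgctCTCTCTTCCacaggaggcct
Rpl34: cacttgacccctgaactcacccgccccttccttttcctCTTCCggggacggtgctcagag
Rps27: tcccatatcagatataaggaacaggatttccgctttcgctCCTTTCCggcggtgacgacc
Rpl13a: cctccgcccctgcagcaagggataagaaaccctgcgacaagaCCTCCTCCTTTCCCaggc
Rpl7a: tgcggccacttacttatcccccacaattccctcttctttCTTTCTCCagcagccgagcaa
Rpl7l1: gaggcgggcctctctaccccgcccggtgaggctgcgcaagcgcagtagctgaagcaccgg
Rpsa: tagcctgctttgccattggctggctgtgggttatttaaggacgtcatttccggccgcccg

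As a share of all normalized counts, the group mean of the members was lowest in Sham6w in each cell type. In Kupffer cells they held 7.94 to 8.97% in Sham6w, 10.3 to 14.2% in CBDL2w, 11.1 to 13.3% in CBDL6w, 12.0 to 13.8% in DSS and 9.52 to 11.9% in CBDL+DSS. All 16 Kupffer cell libraries of injured mice lay above all 4 controls. In monocytes the share was 9.79 to 11.0% in Sham6w, 14.2 to 18.3% in CBDL2w, 15.6 to 17.2% in CBDL6w, 12.9 to 15.3% in DSS and 13.9 to 16.1% in CBDL+DSS, again with no overlap with Sham6w. In monocyte-derived macrophages Sham6w spanned 10.6 to 14.5%, and CBDL6w (11.1 to 16.7%), DSS (12.6 to 16.1%) and CBDL+DSS (12.7 to 14.1%) overlapped it, while CBDL2w (14.6 to 17.1%) lay just above. As ratios of group means to Sham6w, the shares were 1.28 to 1.5 in Kupffer cells, 1.36 to 1.64 in monocytes and 1.09 to 1.3 in macrophages.

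In monocytes after bile duct ligation most members rose. At 2 weeks 58 of the 81 tested members rose and none fell, where 8.05% of all 6112 tested genes rose and 5.71% fell (limma, adjusted p under 0.05). The median log2 difference from Sham6w was 0.68 over the members and -0.10 over all genes. At 6 weeks 49 rose and none fell (5.87% and 5.33% of all genes), with a member median of 0.61. With colitis added to ligation 47 rose and 1 fell (7% and 6.07% of all genes), with a median of 0.55. Small-subunit members had medians of 0.84, 0.70 and 0.61 in these comparisons and large-subunit members 0.62, 0.55 and 0.53. When each library was left out in turn, 40 of the 58, 33 of the 49 and 21 of the 48 called members passed every time. The count for CBDL+DSS fell to 28 without Sham6w replicate 1+2+5, and to 29 without Sham6w replicate 3+6 or CBDL+DSS replicate 2.

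Rpl34, a large-subunit protein, had 244, 363 and 181 normalized counts in the 3 Sham6w monocyte libraries. It had 532, 505, 606 and 911 in CBDL2w, 588, 465, 634 and 488 in CBDL6w, and 523, 497, 490.1 and 457 in CBDL+DSS. All ligated libraries lay above all controls, and DSS alone (396, 418, 303 and 383) overlapped them. The log2 differences were 1.29 ± 0.21 (SE; adjusted p = 0.000195), 1.09 ± 0.21 (adjusted p = 0.00124) and 0.96 ± 0.21 (adjusted p = 0.00391).

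Rps14, a small-subunit protein of the decoding platform, had 672, 674 and 745 in Sham6w monocytes, 1196, 1399, 1981 and 1639 in CBDL2w and 1564, 1372, 1525 and 1477 in CBDL6w. No ligated library without colitis overlapped the controls, and Rps14 rose by 1.13 ± 0.20 (adjusted p = 0.000517) and 1.09 ± 0.20 (adjusted p = 0.00104). Rpl35a, another large-subunit protein, had 848, 652 and 651 in Sham6w and 1202, 1378, 1629.9 and 1499.6 in CBDL6w, a rise of 0.99 ± 0.13 (adjusted p = 2.67e-05). Rps12 had 910.5, 884 and 751 in Sham6w against 1217, 1692, 1717 and 1607 in CBDL+DSS, a rise of 0.87 ± 0.16 (adjusted p = 0.00104). These groups did not overlap either. Rps2, at 87.9, 68.8 and 34.7 in Sham6w and 126, 119.8, 171 and 133 in CBDL2w, rose by 1.18 ± 0.34 (adjusted p = 0.0205), a call that was lost without Sham6w replicate 4 or CBDL2w replicate 3.

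In monocytes of mice with colitis alone 8 members rose and none fell (1.05% and 0.54% of all genes), with a member median of 0.39. Rps20 had 542, 781 and 705 in Sham6w and 960.3, 926, 1214 and 1255 in DSS, without overlap, a rise of 0.69 ± 0.14 (adjusted p = 0.0259). Rps28 rose by 0.66 ± 0.15 (adjusted p = 0.0320) and Rpl10, which lies near the catalytic centre of the large subunit, by 0.61 ± 0.13 (adjusted p = 0.0308). The count rested on few libraries: it was 0 without DSS replicate 3 or 4, 2 without Sham6w replicate 1+2+5, 1 without Sham6w replicate 3+6, and 13 without DSS replicate 2. It was 14 with all libraries scaled to equal totals. No member differed between CBDL2w and CBDL6w monocytes by limma or edgeR (0% of all genes by limma), with 1 at an unadjusted p under 0.05 by limma.

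Other transcripts moved with these groups of monocytes. All 13 endothelial markers were detected in Sham6w and together held 0.290 to 0.503% of counts there, 0.208 to 0.407% in DSS, and 0.0275 to 0.0749% in the ligated groups, where Oit3 and Cyp4b1 were at 0 in CBDL6w. The 9 classical monocyte markers held 0.568 to 0.718% in Sham6w, 0.712 to 0.894% in DSS and 0.893 to 1.16% in the ligated groups. Of the 10 dendritic cell markers 9 were detected in Sham6w, at 0.0586 to 0.0982%, against 0.0129 to 0.0239% after ligation. Mitochondrial-genome transcripts held 4.58 to 6.54% in Sham6w and 2.97 to 3.54% in DSS, where 1 of 14 fell, and 0, 3 and 1 of 14 fell in CBDL2w, CBDL6w and CBDL+DSS. Their part in the rise of the ribosomal protein genes was not tested.

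**Figure D1:**
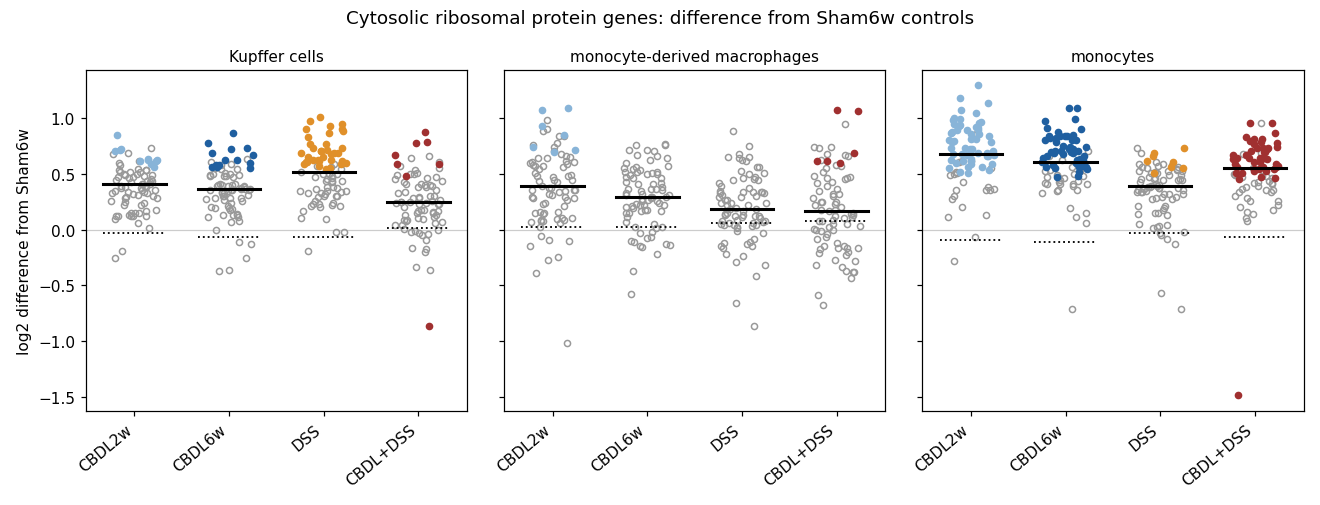
Log2 difference of each of the 81 tested members from Sham6w (vertical axis) by injury group (horizontal axis) and cell type (panels); filled points passed limma at an adjusted p under 0.05, solid lines are member medians and dotted lines the medians of all tested genes. The solid line lies above the dotted one in all 12 comparisons, most in ligated monocytes (0.68 against -0.10 in CBDL2w), and in macrophages with CBDL+DSS they are 0.17 and 0.08.

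In Kupffer cells members rose after ligation as well. At 2 weeks 11 of 81 rose and none fell (1.09% and 1.62% of all 6159 tested genes), with a member median of 0.41. At 6 weeks 14 rose and none fell (1.22% and 2.03% of all genes), with a median of 0.37. Rps18, at the head of the small subunit, had 328, 287, 282 and 370.1 in Sham6w and 649, 577, 577 and 481 in CBDL2w. The groups did not overlap and the rise was 0.85 ± 0.13 (adjusted p = 0.000330), the only call of this comparison that passed without any 1 library. The count of 11 fell to 3, 2, 6 and 5 without Sham6w replicates 1 to 4, to 5, 5 and 2 without CBDL2w replicates 1 to 3, and was 19 without CBDL2w replicate 4. With all libraries scaled to equal totals it was 23, and 2.14% of all genes then rose and 1.45% fell.

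At 6 weeks Rps7, a small-subunit protein that also binds the p53 regulator Mdm2, had 588, 419.6, 434 and 441 against 270.4, 239, 337 and 246 in Sham6w, a rise of 0.78 ± 0.16 (adjusted p = 0.00897). Rpl41, which encodes the smallest ribosomal protein, had 1573, 1032, 1119 and 1192 against 715, 499.6, 790.1 and 691, a rise of 0.87 ± 0.18 (adjusted p = 0.00887). Neither gene overlapped between the groups, and these were the 2 of 14 calls kept without any 1 library. The count was 4 without CBDL6w replicate 4, and 8, 4, 5 and 8 without Sham6w replicates 1 to 4. With equal totals 1.66% of all genes rose and 1.64% fell. No member differed between CBDL2w and CBDL6w by limma or edgeR (0% of all genes by limma), with 4 at an unadjusted p under 0.05 by limma.

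In Kupffer cells of mice with acute colitis and no ligation, 36 of 81 members rose and none fell, where 3.34% of all genes rose and 4.55% fell, and the member median was 0.52 against -0.07 over all genes. Both subunits took part, with 20 of 48 large-subunit and 16 of 33 small-subunit members. Rps18 had 618, 734, 607 and 585 in DSS, all above the Sham6w values, a rise of 1.01 ± 0.13 (adjusted p = 9.37e-05). Rps13, also of the small subunit, had 845, 414, 571 and 480.2 against 293, 321, 214 and 320.3, a rise of 0.97 ± 0.23 (adjusted p = 0.0138). Rpsa, which doubles as a laminin receptor, had 166, 204, 140.0 and 177 against 90.5, 87.9, 90.3 and 86.3. The controls varied little and lay below every DSS library, and the rise was 0.93 ± 0.15 (adjusted p = 0.000526). Rpl10a rose by 0.91 ± 0.16 (adjusted p = 0.00164), Rpl22 by 0.83 ± 0.15 (adjusted p = 0.00218) and Rpl13a by 0.69 ± 0.16 (adjusted p = 0.0138). The count was 19 without Sham6w replicate 2 and 18 without DSS replicate 2, and 15 members passed in every fit that left out 1 library. With equal totals 5.47% of all genes rose and 3.37% fell.

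In Kupffer cells of mice with colitis on top of ligation, against Sham6w, 7 members rose and 1 fell (1.61% and 1.7% of all genes), with a median of 0.25. Rpl13a had 1582, 1191, 1406 and 1498 against 723, 772, 770.3 and 804, without overlap, a rise of 0.88 ± 0.16 (adjusted p = 0.00213). Rpl29 fell by 0.87 ± 0.22 on the log2 scale (adjusted p = 0.0261), from 139, 126, 104 and 150.2 to 69.7, 58.2, 73.8 and 80.6. The count of 8 was 3, 3, 4 and 5 without Sham6w replicates 1 to 4, and 4, 5 and 2 without CBDL+DSS replicates 1+3, 4+5 and 6, and Rpl13a alone kept its call without any 1 library (Rpl29 lost it without Sham6w replicate 1, 2 or 4 or CBDL+DSS replicate 1+3, 2 or 4+5). Against CBDL6w none rose and 2 fell (0.942% and 0.796% of all genes). The count was 1 when any of 6 libraries was left out (CBDL6w replicates 2 and 3, CBDL+DSS replicates 1+3, 2, 4+5 and 6).

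The colitis effect in Kupffer cells was then tested for a difference between mice with and without ligation. For 27 of 81 members the colitis effect with ligation was lower than that without it, and for none higher, where 2.27% of all genes were lower and 3.75% higher. The member median of this difference was -0.66, against 0.14 over all genes, and 77 of 81 values were negative. Rps18, at 328, 287, 282 and 370.1 in Sham6w and 618, 734, 607 and 585 in DSS, had 428, 496, 438 and 498 in CBDL6w and 417, 356, 445 and 434 in CBDL+DSS. Each injury alone lay above the controls, and the 2 injuries together overlapped them. Its difference of effects was -1.18 ± 0.19 (adjusted p = 0.000796). The difference was for Rpl10a -1.17 ± 0.23 (adjusted p = 0.00365), for Rpsa -1.13 ± 0.21 (adjusted p = 0.00273) and for Rpl22 -0.87 ± 0.22 (adjusted p = 0.0203), which was lost without Sham6w replicate 2. The count was 11 without Sham6w replicate 2, 15 without DSS replicate 2 or CBDL+DSS replicate 2, and 17 without CBDL6w replicate 4, Sham6w replicate 4 or CBDL+DSS replicate 1+3. Without a filter on low values it was 16. In every fit that left out 1 library 11 of the 27 passed. With equal totals 3.01% of all genes were lower and 2.97% higher.

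**Figure D2:**
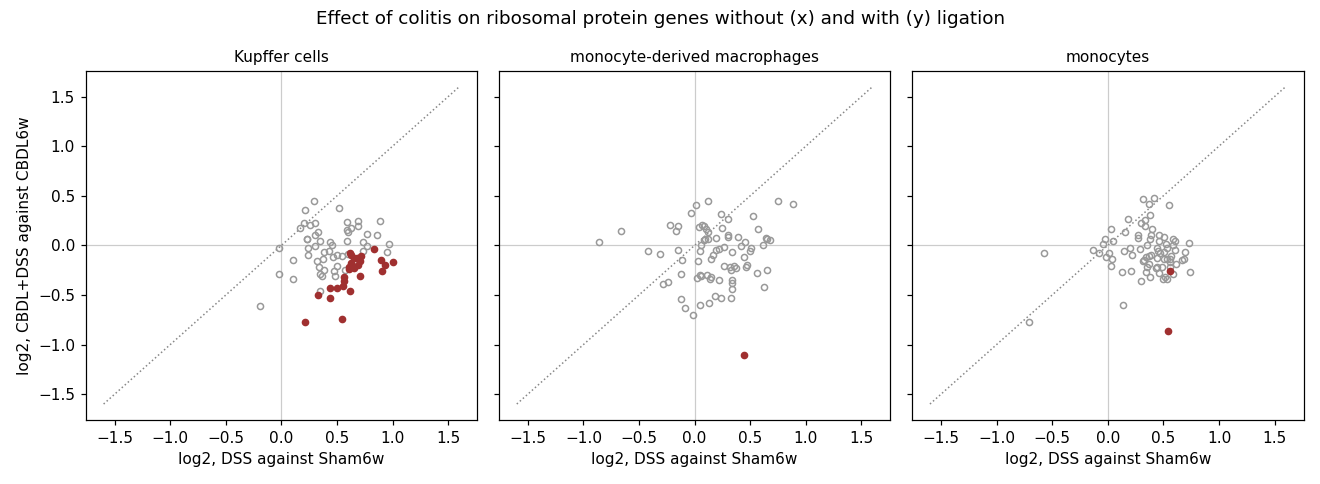
Log2 effect of colitis on each tested member without ligation (DSS against Sham6w, horizontal axis) and with ligation (CBDL+DSS against CBDL6w, vertical axis), by cell type; filled points are members whose 2 effects differed at an adjusted p under 0.05, and the dotted line marks equal effects. In Kupffer cells most points lie right of 0 and below the line, and 27 are filled; 1 is filled in macrophages and 2 in monocytes.

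Mitochondrial-genome transcripts fell in DSS Kupffer cells. They held 6.46 to 9.00% of counts in Sham6w, 3.49 to 5.20% in DSS, 3.95 to 6.30% in CBDL2w, 4.22 to 7.23% in CBDL6w and 4.55 to 5.75% in CBDL+DSS. Of 15 tested, 13 fell in DSS, among them mt-Nd4 by 0.95 ± 0.17 (adjusted p = 0.00177). Their shares in macrophages and monocytes stand with those cells. With every library scaled to an equal total outside the members and the mitochondrial transcripts, 24 members were called in CBDL2w, and no count fell by more than 1.5 times. Cycling-cell markers, 10 of 12 detected in Sham6w with Cdc20 and Ccnb1 at 0, held 0.00920 to 0.0228% there, 0.0572 to 0.0675% in DSS and 0.0176 to 0.0320% in CBDL+DSS. The 14 Kupffer cell markers held 0.791 to 0.975% in DSS, 0.728 to 0.935% in CBDL+DSS, 0.538 to 0.672% in CBDL2w and 0.379 to 0.719% in CBDL6w, below the controls. The 9 classical monocyte markers were at 0.113 to 0.187% in CBDL2w, 0.0568 to 0.173% in CBDL6w, 0.0426 to 0.107% in DSS and 0.0269 to 0.0685% in CBDL+DSS. The 9 macrophage markers held 1.19 to 1.52% in Sham6w and 0.616 to 0.726% in DSS. The cycling-cell shares of CBDL2w and CBDL6w and the macrophage-marker shares of the ligated groups are not given here, so no match across groups can be read from these values. The part of these transcripts in the Kupffer cell results was not tested.

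Monocyte-derived macrophages gave few calls. In CBDL2w 7 members rose and none fell (1.69% and 1.37% of all 6079 tested genes), and in CBDL+DSS 6 rose and none fell (4.61% and 5.2% of all genes). In CBDL6w and in DSS no member passed by limma or edgeR (0.411% of all genes were higher and 0.806% lower in CBDL6w, and 1.27% and 0.806% in DSS), with 19 and 13 members at an unadjusted p under 0.05 by limma. The member medians were 0.39, 0.30, 0.19 and 0.17 for CBDL2w, CBDL6w, DSS and CBDL+DSS. Rpl7a had 301, 289, 314 and 281 in CBDL+DSS and 106, 201 and 131 in Sham6w, without overlap, a rise of 1.06 ± 0.21 (adjusted p = 0.00248) that held without any 1 library. No member differed between CBDL2w and CBDL6w by limma or edgeR (0.0823% of all genes were higher and 0% lower), with 4 at an unadjusted p under 0.05 by limma.

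The Sham6w macrophages varied, which bears on every count in this cell type. Of all 58 libraries, Sham6w macrophage replicate 1+2+5 had the fewest recovered reads (118687) and the fewest genes detected (8885). Rps21, a small-subunit protein, had 215, 739 and 367 in the controls (replicates 1+2+5, 3 and 4+6) and 806, 773, 861 and 836 in CBDL2w, a rise of 1.07 ± 0.25 (adjusted p = 0.0177). The CBDL2w values lay close together, and the controls spread over a wide range below them. Rpl9 (1.09 ± 0.27, adjusted p = 0.0259) and Rps15a (0.93 ± 0.24, adjusted p = 0.0369) rose as well, and these 3 calls were lost without Sham6w replicate 1+2+5 or CBDL2w replicate 3 and with edgeR on the recovered reads. The count in CBDL2w was 0 without that library and 23 without Sham6w replicate 3, and 2, 4, 1 and 4 without CBDL2w replicates 1 to 4. Without Sham6w replicate 3 it was 7 in CBDL6w, 6 in DSS and 16 in CBDL+DSS. It was 2 in CBDL6w without CBDL6w replicate 2, 1 in CBDL6w and in DSS without Sham6w replicate 4+6, 1 in CBDL+DSS without Sham6w replicate 1+2+5 or CBDL+DSS replicate 1 or 2, and 2 without CBDL+DSS replicate 4+5. Without a filter on low values CBDL+DSS had 1. Marker shares moved too: the 9 classical monocyte markers held 0.0993 to 0.153% in Sham6w macrophages and 0.444 to 0.526% in CBDL2w, and the 14 Kupffer cell markers 0.133 to 0.461% and 0.0819 to 0.136%. Of 10 B cell and 12 T and NK cell markers, 10 and 11 were detected in Sham6w macrophages. In CBDL2w 5 and 8 were detected, in CBDL6w 6 and 10, in DSS 9 and 10, and in CBDL+DSS 5 and 6. Mitochondrial-genome transcripts held 4.12 to 4.74% in Sham6w macrophages, 2.00 to 2.65% in DSS and 4.61 to 5.48% in CBDL+DSS. In DSS macrophages, where no member was called, 6 of 14 fell and none rose, mt-Nd2 by 1.35 ± 0.22 (adjusted p = 0.00198), a call kept without any 1 library. The part of these markers, of the mitochondrial transcripts and of library depth in these counts was not tested.

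Rps14 was lower in macrophages and monocytes when colitis was added to ligation. In macrophages it had 1147, 727, 1244 and 1296 in CBDL6w and 324, 678, 494 and 567 in CBDL+DSS, with 535, 879 and 899 in Sham6w and 937, 878, 878 and 1499 in DSS. No CBDL+DSS library reached the CBDL6w range, and it fell by 1.11 ± 0.24 on the log2 scale (adjusted p = 0.0103), a call kept without any 1 library. It was the 1 member called in this comparison (2.07% of all genes were lower and 2.09% higher), and 7 were called without CBDL6w replicate 2. Its colitis effect with ligation differed from that without by -1.55 ± 0.36 (adjusted p = 0.0237), the 1 called member (0.888% of all genes were lower and 1.2% higher). That count was 0 without CBDL6w replicate 3 or 4 or CBDL+DSS replicate 1, 2 without CBDL6w replicate 2 and 3 without Sham6w replicate 3.

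In monocytes Rps14 had 503, 869, 802 and 1244 in CBDL+DSS against 1564, 1372, 1525 and 1477 in CBDL6w, and fell by 0.87 ± 0.19 (adjusted p = 0.0304). CBDL+DSS overlapped the 3 controls, and both groups with 1 injury (DSS at 1114, 935, 946 and 1069.9) lay above them. It was among the 2 members called (0.278% of all genes were lower and 0.295% higher). Leaving out any 1 of the 8 libraries lowered that count: to 0 without CBDL6w replicate 1 or 4 or CBDL+DSS replicate 1 or 2, and to 1 without the others. For the difference of colitis effects in monocytes Rps14 (-1.41 ± 0.27, adjusted p = 0.0227) and Rps16 (-0.82 ± 0.16, adjusted p = 0.0227) were called (0.196% of all genes were lower and 0.115% higher), with a member median of -0.47. That count was 0 without CBDL6w replicate 1, Sham6w replicate 3+6 or DSS replicate 4, 1 without Sham6w replicate 1+2+5 or CBDL+DSS replicate 1 or 6, and 5 without CBDL6w replicate 3. With equal totals it was 4, and without a filter on low values 0. In Kupffer cells Rps14 had 662, 399, 578 and 842 in CBDL+DSS and 574, 699, 804 and 948 in CBDL6w, which overlapped.

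**Figure D3:**
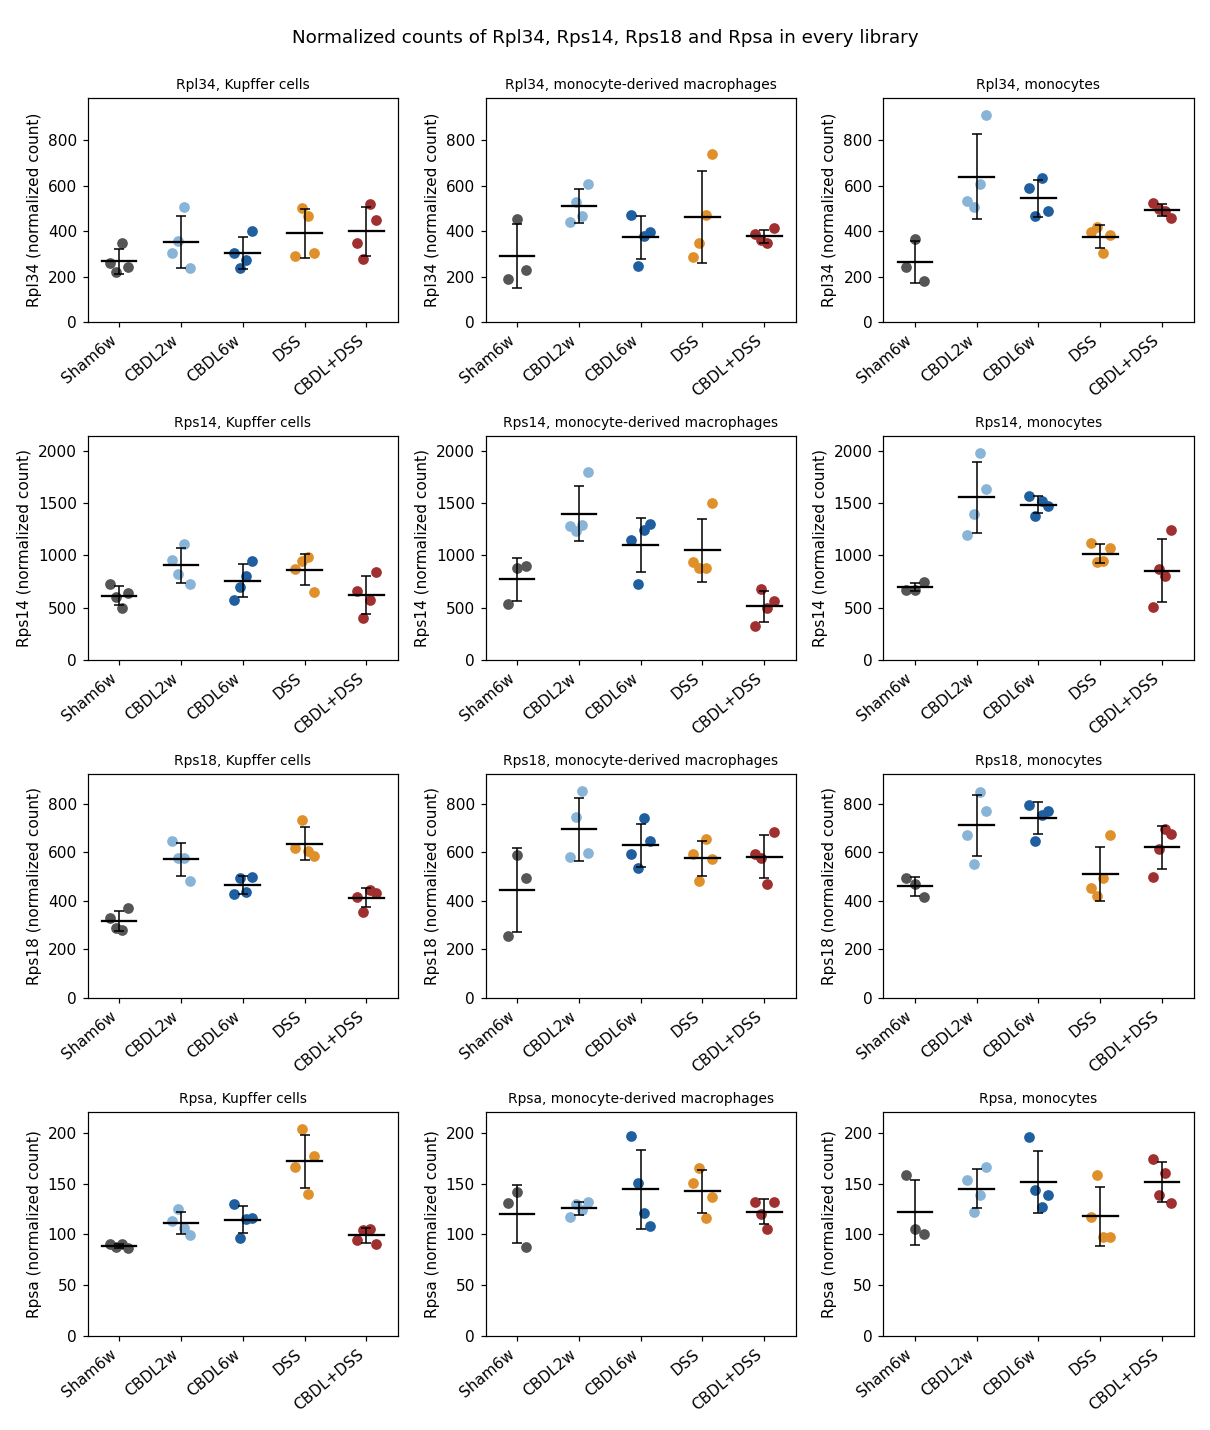
Normalized counts (vertical axes, from 0) of Rpl34, Rps14, Rps18 and Rpsa (rows) in every library, by injury group (horizontal axes) and cell type (columns); lines are group means and bars 1 SD. Rps14 in macrophages with CBDL+DSS lies at 324 to 678, below all CBDL6w libraries (727 to 1296), and Rpsa in Kupffer cells with DSS lies at 140.0 to 204, above all Sham6w libraries (86.3 to 90.5).

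Control livers were compared between cell types, and the macrophage controls include the library with the fewest reads, replicate 1+2+5. Against monocyte-derived macrophages 25 of 81 were lower in Kupffer cells and none higher (6.83% and 9.11% of all 7555 tested genes, and 8.12% and 7.62% with equal totals), with a member median of -0.40. Rpl27a had 275, 322, 299 and 299.6 in Kupffer cells and 770.2, 533 and 573 in macrophages, without overlap, a difference of -1.05 ± 0.16 (adjusted p = 2.58e-06). Rps7 differed by -0.91 ± 0.16 (adjusted p = 4.69e-05) and Rps3a1 by -0.88 ± 0.16 (adjusted p = 8.30e-05). Against monocytes 6 were lower in Kupffer cells and none higher (8.54% and 7.48% of all genes, so the count is close to the background). Rps9 had 349, 293, 383 and 319.5 in Kupffer cells and 649, 509 and 639 in monocytes, a difference of -0.83 ± 0.15 (adjusted p = 4.54e-05) with no overlap. That count was 3 without Kupffer cell Sham6w replicate 2. Of 15 mitochondrial-genome transcripts 12 were higher in Kupffer cells than in macrophages and 10 higher than in monocytes. Macrophages were above monocytes in 4 members and below in none (1.95% and 4.21% of all genes), a count that was 0, 1 and 2 without Sham6w monocyte replicates 1+2+5, 3+6 and 4.

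Tested directly, the effect of colitis differed between cell types for Rpl22 only, by limma over all 58 libraries. It rose by 1.07 ± 0.23 more in Kupffer cells than in macrophages (adjusted p = 0.0124), and 0.185% of all genes were higher and 0.675% lower in that test (0.305% and 0.57% with equal totals). Rpl22, an RNA-binding protein of the large subunit, had 398, 292, 332 and 347 in Sham6w Kupffer cells and 574, 712, 631 and 521 in DSS, while macrophages had 575, 747 and 476 in Sham6w and 438, 395, 611 and 587 in DSS. The members called numbered 2, 2 and 4 without Sham6w macrophage replicates 1+2+5, 3 and 4+6, and 4 with equal totals. No member differed between the colitis effects of Kupffer cells and monocytes, or of macrophages and monocytes, by limma or edgeR (9 and 10 at an unadjusted p under 0.05 by limma). Of all genes 0.0794% were higher and 0.159% lower in the test against monocytes (0.133% and 0.159% with equal totals), and 0.0397% and 0% in that of macrophages against monocytes. With equal totals 1 member was called for Kupffer cells against monocytes, and also 1 without monocyte DSS replicate 2 or Kupffer cell DSS replicate 3. Whether the ligation effects differ between cell types was not tested.

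**Figure D4:**
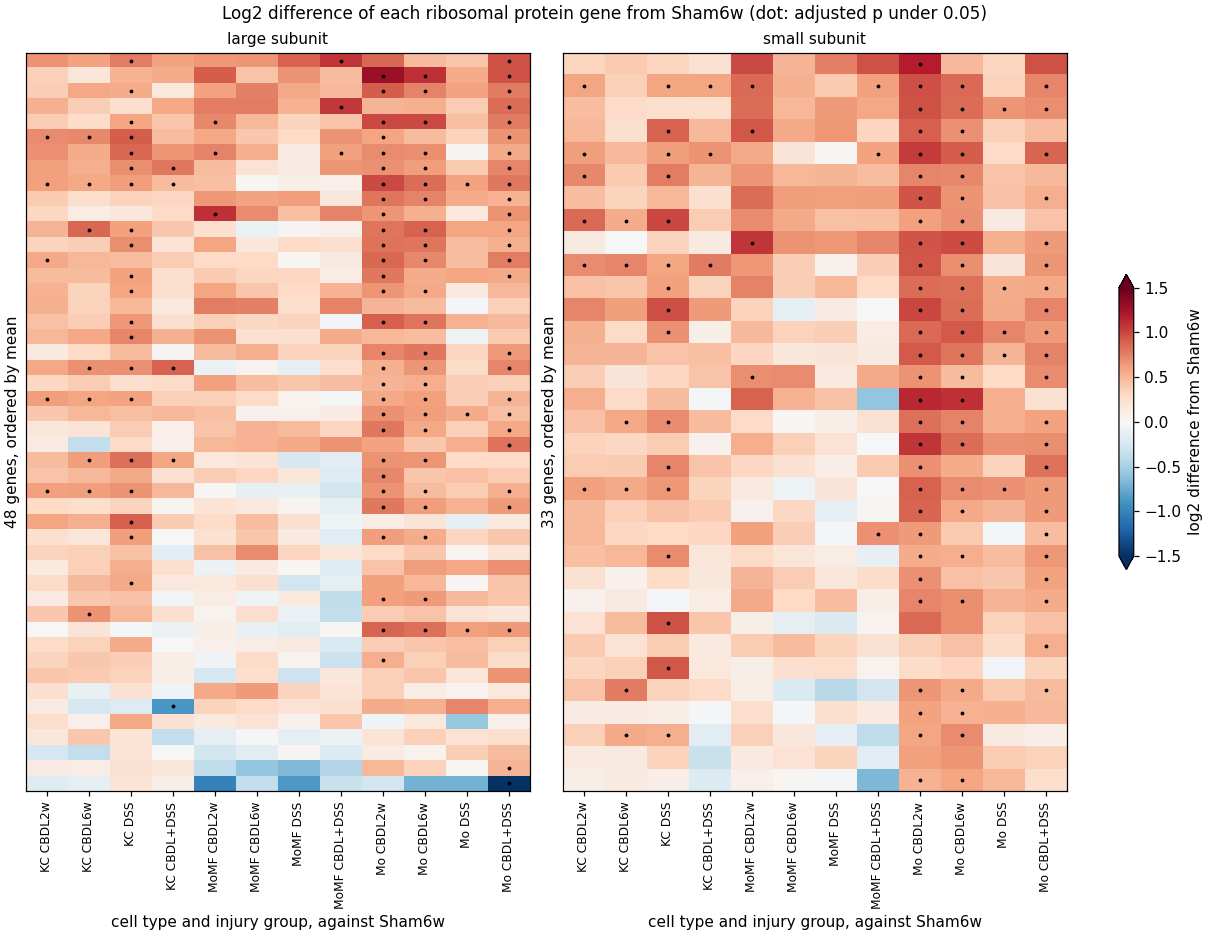
Log2 difference from Sham6w (colour) of each tested member (rows, 1 per member, by subunit and ordered by mean) in each cell type and injury group (columns); a dot marks limma adjusted p under 0.05, and colours end at 1.5 either way. Dots are densest in the ligated monocyte columns (58, 49 and 48) and the DSS Kupffer cell column (36), and are absent from macrophages in CBDL6w and DSS.

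Members with a known special place in the ribosome follow, with no test of a difference between them. In the stalk that recruits translation factors, Rplp0 rose in CBDL2w monocytes by 0.86 ± 0.16 (adjusted p = 0.00104), from 142, 134 and 172 to 252, 279, 266 and 285, and Rplp2 by 0.62 ± 0.16 (adjusted p = 0.0133), and Rplp1 was not called in any comparison with Sham6w. In CBDL2w monocytes the value of Rplp1 was 0.13 ± 0.28 (adjusted p = 0.815), at 172, 118 and 219 in Sham6w and 203, 164, 215 and 147 in CBDL2w. The ubiquitin fusion Rps27a, whose product is cut into ubiquitin and a small-subunit protein, had 746, 612 and 657 in Sham6w monocytes and 1231, 1119, 1325 and 1460.3 in CBDL2w. These did not overlap, and it rose by 0.93 ± 0.13 (adjusted p = 5.74e-05). Fau, fused to a ubiquitin-like protein, rose by 0.52 ± 0.15 (adjusted p = 0.0181). The call of Rplp2 was lost without Sham6w replicate 1+2+5 or CBDL2w replicate 3, and that of Fau without Sham6w replicate 3+6 or CBDL2w replicate 3 or 4. Rpl5 and Rpl11 form with the 5S RNA the particle that binds Mdm2. In CBDL2w monocytes Rpl5 rose by 0.63 ± 0.16 (adjusted p = 0.00819), and the value of Rpl11 was 0.60 ± 0.23 (adjusted p = 0.0848), which passed without CBDL2w replicate 1.

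Paralogues were measured at very different precision. Rps27 had 1152, 1199 and 1035 in Sham6w monocytes and 1479, 1785, 2173 and 2111 in CBDL2w, without overlap, and rose by 0.73 ± 0.15 (adjusted p = 0.00211). In Kupffer cells it had 1051, 846, 1007 and 935 in Sham6w and 782, 848, 1089.8 and 1089 in DSS, which overlapped. Its paralogue Rps27l, a p53 target, rose there by 0.95 ± 0.25 (adjusted p = 0.0207), from 47.9, 44.9, 37.7 and 39.0 to 57.2, 103, 107 and 73.4, a call lost without Sham6w replicate 3 or 4 or DSS replicate 2 or 3. Rpl10 likewise rose in CBDL2w monocytes by 0.87 ± 0.13 (adjusted p = 0.000129), while Kupffer cells had 669, 687, 711 and 692 in Sham6w and 576, 698, 733 and 722 in DSS. Rpl22l1, the paralogue of Rpl22, rose in DSS Kupffer cells by 0.77 ± 0.23 (adjusted p = 0.0395) and in CBDL+DSS monocytes by 0.95 ± 0.29 (adjusted p = 0.0342). The former call was lost without any of 6 libraries (all but Sham6w replicate 1 and DSS replicate 4) and by edgeR, the latter without any of 5 (all but Sham6w replicate 4 and CBDL+DSS replicate 1). Rpl7l1, a paralogue of Rpl7, was the 1 member lower in CBDL+DSS monocytes, at 6.30, 2.05, 2.32 and 2.71 against 13.1, 8.45 and 10.1 (-1.49 ± 0.47, adjusted p = 0.0407), values near the filter. It was not called by edgeR, nor without Sham6w replicate 3+6 or CBDL+DSS replicate 2, 4+5 or 6.

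Over the 12 comparisons with Sham6w, which share controls in sets of 4, members were called higher in 0 to 8. Rpl37 and Rps25 were called in 8, and Rps12, Rps20 and Rps27a in 7. Of all 5171 genes tested in the 12 comparisons 22 (0.425%) were called higher in at least 7 and 4 (0.0774%) in 8, these members included, and 903 (17.5%) in at least 1, against 69 of 81 members. The comparisons of a cell type share their controls, so such counts are a description. For Rps25 the log2 difference lay between 0.34 and 0.96 in all 12. Another 12 members were called higher in none, among them Rplp1, Rpl4, Rpl7, Rpl8, Rpl28, Rpl36 and Rps15.

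Within groups the members also varied together from library to library. After the mean of each of the 15 groups was subtracted, the log2 level of a member correlated with the mean of the other tested members at a median Pearson r of 0.59 over 58 libraries, and 55 of 81 lay above 0.5. Over 7474 other genes the median was -0.01. These points share each library's depth and scaling, so r is a description. Rpl23a (0.88), Rps16 (0.86), Rpl35 (0.86) and Rpl37a (0.84) were among the highest, and Rpsa (-0.12), Rpl3 (-0.06), Rpl7l1 (-0.01), Rplp1 (0.02) and Rpl36 (0.10) lowest. The genes outside the list with the most similar pattern were all processed pseudogenes: Rps16-ps2 (0.85), Gm10132 (0.84), Gm10335 (0.83), Gm3362 (0.82) and Gm4613 (0.80).

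Such copies limit how exactly a member can be counted. Among all rows, 280 carry the name of a pseudogene copy (-ps) of 60 members, and they held 20.8% of the counts of those families. Pseudogenes under other names, such as the Gm rows above, were not counted as copies, so the share may be higher. Reads may have been split between a gene and its copies, so levels of members with many copies are uncertain. Copies held more than their gene for Rps6 (59.5% of the family's counts), Rpl36 (58.0%), Rpl17 (56.7%) and Rps2 (55.7%), and 47.9% for Rps12. For the 40 families whose copies had a mean of at least 20, the median log2 difference in CBDL2w monocytes was 0.84 for copies and 0.80 for genes, and in DSS Kupffer cells 0.62 and 0.57. Adding these named copies to their genes, a step chosen after the data were seen, moved none of the 27 counts of called members by more than 1.5 times. Pseudogenes under other names were not added.

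Other genes of the translation machinery were counted in the same fits. Of 24 tested translation factors and partners whose messages also carry the TOP motif, leaving out genes of ribosomal proteins that the name pattern missed, 5 rose and none fell in CBDL2w monocytes, 4 rose in CBDL6w and 5 in CBDL+DSS. Of all genes 8.05%, 5.87% and 7% rose in these comparisons. Tpt1, a translationally controlled growth protein, rose by 0.65 ± 0.10 in CBDL2w (adjusted p = 0.000177), the elongation factor Eef1a1 by 0.57 ± 0.15 (adjusted p = 0.0151) and its exchange factor Eef1b2 by 0.73 ± 0.18 (adjusted p = 0.00869). Without Sham6w replicate 3+6 the last 2 lost their calls, and Eef1a1 also without CBDL2w replicate 3. None of 25 tested ribosome biogenesis genes passed in these 3 comparisons or in DSS monocytes, and their medians were -0.43, -0.23, -0.36 and -0.14. In the same monocytes 3 of 42 mitochondrial ribosomal protein genes rose in CBDL2w, 2 rose and 1 fell in CBDL6w, and 3 rose in CBDL+DSS, shares close to or below those of all genes in these comparisons. The stress factor Atf4 fell in CBDL2w by 0.98 ± 0.27 on the log2 scale (adjusted p = 0.0151), and lost its call without Sham6w replicate 3+6 or CBDL2w replicate 3. It was the 1 of 17 growth-control genes called there, a share close to the 5.71% of all genes that fell.

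In DSS Kupffer cells 4 of 30 ribosome biogenesis genes rose and none fell, with a median of 0.44, where 3.34% of all genes rose. The 4 included Nop58, of the particles that methylate ribosomal RNA (1.16 ± 0.30, adjusted p = 0.0216), and the nucleolar GTPase Gnl3 (1.51 ± 0.38, adjusted p = 0.0178). The call of Nop58 was lost without Sham6w replicate 1 or 3 or DSS replicate 3, and that of Gnl3 without Sham6w replicate 3 or 4 or DSS replicate 2. Of the 24 genes of the TOP list 2 rose: Gas5, a non-coding host of small nucleolar RNAs (1.22 ± 0.23, adjusted p = 0.00236), and the elongation factor Eef2 (0.73 ± 0.18, adjusted p = 0.0153), lost without DSS replicate 2. Rpl36al, the ribosomal protein gene outside the name pattern, had 164, 107, 177 and 134 in Sham6w and 192, 246, 268 and 243 in DSS and rose by 0.72 ± 0.18 (adjusted p = 0.0162), lost without Sham6w replicate 2. In the difference of colitis effects 5 of 30 biogenesis genes and 5 of 24 genes of the TOP list were lower and none higher (2.27% of all genes were lower), with medians of -0.83 and -0.63. The nucleolar protein gene Ncl differed by -1.46 ± 0.29 (adjusted p = 0.00437) and Nop58 by -2.09 ± 0.43 (adjusted p = 0.00560), and both kept their calls without any 1 library. Of 15 mitochondrial-genome transcripts 6 were higher in that test and none lower (3.75% of all genes were higher), mt-Nd4 by 1.22 ± 0.24 (adjusted p = 0.00420). Of 48 mitochondrial ribosomal protein genes 1 rose in DSS Kupffer cells, a share below that over all genes, and none of 7 tested p53 targets of nucleolar stress passed.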

How the data were processed

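Total RNA was sequenced from transcript 3' ends with molecular identifiers, as the labels' protocols state. Tools named in the submitters' processing notes, with no order given, are STAR 2.7.5b, RSEM 1.3.1, UMI-tools 1.0.1, Trimmomatic 0.39 and 0.39-1, and DESeq2, with the build GRCm38.p6. The deposited signal is the authors' normalized count, a gene count divided by a size factor (0.404 to 1.675 as recovered from the values, with 100% of values whole within 0.01). Symbols came from GENCODE M21 for 25272 of 25307 identifiers.

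limma 3.58.1 (R 4.3.3, trend and robust) was run on log2(normalized count + 1) after the filter on low values, in 1 fit per cell type over its 5 groups, and in 1 fit over all 58 libraries for comparisons between cell types. P-values were two-sided and Benjamini-Hochberg adjusted over all genes of a comparison (threshold 0.05). The fits were also run on simulated data in which each gene was drawn on its own, and no outcome of that run is given here. Changes are log2 values ± SE and understate those of low genes. Members were named by rule: the 3 largest rises and falls among called members whose groups did not overlap, where the higher group's mean reached 50 (or the 3 of smallest p), members with special roles, up to 3 genes of each companion list, and genes by likeness. Others were chosen after their values were seen, and some members are not reported by name here. The members and lists were chosen with earlier results of these data known. Alternatives were a pseudocount of 5, no filter, 2 other scalings, the replicate number as a block, edgeR 4.0.16 on recovered reads, and each library left out in turn.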

Additional observations from a re-analysis of the deposited data

Results flagged for a closer look

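In groups of 4 libraries, the gap of the highest or lowest library to its neighbour was divided by the range of the group, and values above Dixon's 95% critical value are listed, which chance gives for about 1 in 20 groups. The share of counts on the ribosomal protein genes met this in 3 groups: CBDL6w Kupffer cells (0.913, replicate 4 at 13.3% against 11.1 to 11.3%), CBDL6w macrophages (0.8291, replicate 2 at 11.1% against 15.7 to 16.7%) and CBDL+DSS monocytes (0.953, replicate 1 at 13.9% against 16.0 to 16.1%). Over all 81 tested members and 13 groups of 4 libraries, 63 of 1053 sets of values met it (5.98%), in 44 members. Among members in the groups of the comparisons whose differences are printed above, these were Rps14 in DSS macrophages (0.905, replicate 5+6 at 1499 against 878 to 937), Rps7 in CBDL6w Kupffer cells (0.876, replicate 1 at 588) and Rpl7l1 in CBDL+DSS monocytes (0.844, replicate 1 at 6.30). Rplp1 in DSS Kupffer cells, chosen after its values were seen, also met it (0.967, replicate 2 at 520.4 against 166 to 178).

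The effect of colitis differed with and without ligation, by limma's test of the difference, for 27 members in Kupffer cells, 1 in macrophages (Rps14) and 2 in monocytes (Rps14 and Rps16). Between Kupffer cells and macrophages it differed for 1 member, Rpl22.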

How the results depend on the processing

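A pseudocount of 5 and the sum of members with their named copies left all 27 counts of called members within 1.5 times, and no named gene changed direction under any setting except Rplp1 in CBDL2w monocytes, at -0.62 with the replicate block and -0.11 without Sham6w replicate 3+6. With equal totals the count was 23 for Kupffer cell CBDL2w, 1 for macrophage CBDL6w, 4 for macrophage CBDL+DSS against CBDL6w, 14 for monocyte DSS, 4 for the difference of colitis effects in monocytes, and 4 and 1 for the colitis effect of Kupffer cells against macrophages and against monocytes. With equal totals outside the members and mitochondrial transcripts these were 24, 1, 3, 16, 8, 4 and 1. With edgeR the count was 3 for macrophage CBDL2w, 3 for macrophage CBDL+DSS, 2 for the latter against CBDL6w, 4 for monocyte DSS and 2 for Sham6w macrophages against monocytes. Without a filter it was 1 for Kupffer cell CBDL+DSS against CBDL6w, 16 for the difference of colitis effects in Kupffer cells, 1 for macrophage CBDL+DSS, 5 for monocyte DSS, 1 for monocyte CBDL+DSS against CBDL6w, 0 for the difference of colitis effects in monocytes and 2 for Sham6w macrophages against monocytes. Among the named values, 9 calls were lost without the filter, 5 with edgeR, 0 with copies summed or the pseudocount of 5, and 35 with the replicate block. Adding other Rpl and Rps rows raised the members' share by more than 1 SD in all 15 groups. The cause of these shifts was not tested.

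Same-numbered libraries deviated together little (r of -0.055 to 0.067 within a cell type and -0.061 to 0.095 across cell types). Across cell types of an injury group the median r was 0.035 for same-numbered pairs and -0.011 for other pairs. The numbers were not taken as pairs, but values this low cannot exclude that same-numbered libraries share an animal. The comparisons between cell types may therefore leave out a pairing. Within a cell type the block joins libraries of different injury groups. Some labels occur in 1 library only: 1+2+5 and 4+6 in Sham6w macrophages, and 1+2+5 and 3+6 in Sham6w monocytes. In Kupffer cells 1+3, 4+5 and 6 occur only in CBDL+DSS. Block and group are thus partly confounded, and counts with the block cannot show the effect of a true pairing. With the replicate block the counts in Kupffer cells were 4 for CBDL2w, 4 for CBDL6w, 0 for CBDL+DSS, 0 for the latter against CBDL6w and 2 for the difference of colitis effects. In macrophages with the replicate block they were 0 for CBDL2w, 0 for CBDL+DSS, 3 for the latter against CBDL6w and 0 for the difference of effects. In monocytes with the replicate block they were 14 for CBDL2w, 12 for CBDL6w, 0 for DSS, 1 for CBDL+DSS, 0 for the latter against CBDL6w and 0 for the difference of effects. Between Kupffer cells and macrophages 2 members differed in the colitis effect with the replicate block. In macrophages the block also brought the member median to 0.17 for CBDL2w, 0.03 for CBDL6w, -0.05 for DSS, -0.02 for CBDL+DSS and 0.04 for the difference of effects (-0.34 without the block), and in Kupffer cells to 0.09 for CBDL+DSS and -0.25 for the latter against CBDL6w (-0.10 without the block).

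With each library left out in turn, counts for Kupffer cells were 2 to 19 in CBDL2w, 4 to 15 in CBDL6w, 18 to 31 in DSS, 2 to 10 in CBDL+DSS, 1 to 2 in CBDL+DSS against CBDL6w and 11 to 27 for the difference of colitis effects (17 without CBDL+DSS replicate 1+3). For macrophages they were 0 to 23 in CBDL2w, 0 to 7 in CBDL6w, 0 to 6 in DSS, 1 to 16 in CBDL+DSS, 1 to 7 against CBDL6w and 0 to 3 for the difference of effects. For monocytes they were 48 to 62 in CBDL2w, 36 to 50 in CBDL6w, 0 to 13 in DSS, 28 to 48 in CBDL+DSS (29 without Sham6w replicate 3+6 or CBDL+DSS replicate 2), 0 to 1 against CBDL6w and 0 to 5 for the difference of effects. Between CBDL2w and CBDL6w they stayed 0 in the 3 cell types. For Sham6w Kupffer cells they were 19 to 32 against macrophages and 3 to 6 against monocytes, and 0 to 6 for macrophages against monocytes. For the colitis effect they were 1 to 4 for Kupffer cells against macrophages, 0 to 1 against monocytes and 0 for macrophages against monocytes. Groups of 3 or 4 libraries and depths of 118687 to 521954 reads limit these counts.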
